A study of Homo sapiens with 18 samples.

Results

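The genes described here are 35 genes of the Fanconi anemia pathway, homologous recombination and the DNA damage checkpoint. They were chosen by name from the 26485 genes of the deposited tables, with earlier results of these data known. They are 10 genes of the Fanconi core complex and its ubiquitin-conjugating enzyme, 2 of the ID2 complex, 5 of the BRCA complexes, 4 of the BCDX2 and CX3 complexes, 4 of DNA end processing, 3 of strand exchange and dissolution, 6 of the checkpoint kinases with their partners, and MSH6, which recognizes mismatches. RNA was measured by RNA-seq in PANC-1, an established epithelial cell line from a human pancreatic ductal carcinoma. In the first experiment cells were transfected with 1 of the reagents named PKR siRNA 1 and PKR siRNA 2 or with a control siRNA, and RNA was taken after 72 h. Both PKR siRNAs target EIF2AK2, the mRNA of protein kinase R (PKR), a kinase activated by double-stranded RNA. In the second experiment cells received C16, a small-molecule PKR inhibitor, at 400 nM or 800 nM, or its solvent DMSO alone, for 72 h. Each of the 6 groups had 3 libraries, and the sources used here do not say whether these came from separate cultures, so SDs and p-values describe the spread between libraries.

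Fanconi anemia proteins repair DNA interstrand crosslinks. The core complex, with the E3 ligase FANCL and the E2 enzyme UBE2T, attaches ubiquitin to FANCD2 and FANCI, and the BRCA, BCDX2 and CX3 complexes then take part in repair by homologous recombination. The kinase ATR, acting through claspin (CLSPN) and CHEK1, slows the cell cycle when replication stalls, and ATM acts through CHEK2 after double-strand breaks. Many of these genes are transcribed mainly in cells that replicate DNA.

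Values are normalized counts, which are reads per gene divided by a factor for each library, and levels were compared only within the siRNA table or within the C16 table. Reads assigned to genes numbered 1512940 to 1873906 per siRNA library and 894145 to 1474308 per C16 library. The labels place all siRNA libraries in 1 sequencing run and all C16 libraries in another, so effects of the run cannot be told apart from those of the kind of treatment. A gene was tested where its mean over the 9 libraries of a table was at least 10, and it was called higher or lower at a Benjamini-Hochberg adjusted p under 0.05 in limma with a fold over 1.5. In the siRNA experiment all 35 genes were tested. In the C16 experiment 33 were, since FANCB, at 5.32 to 18.3, and FANCE, at 4.77 to 15.8, had a mean under 10. Normalized counts of EIF2AK2 were 95.5, 93.5 and 103 with control siRNA, 9.997, 13.6 and 9.65 after PKR siRNA 1, and 7.96, 8.58 and 9.41 after PKR siRNA 2. All 6 knockdown libraries lay below the controls, with a log2 fold change of -3.04 ± 0.25 (SE, adjusted p = 4.69e-18) and -3.35 ± 0.25 (adjusted p = 2.58e-20). Of the 6 epithelial markers, EPCAM and KRT19 among them, summed levels were 3052 to 10233 per siRNA library and 5172 to 7572 per C16 library, while of 9 markers of other cell types the leukocyte markers PTPRC and CD3E and the fibroblast marker DCN were at 0 in all 18 libraries. COL1A1, a fibroblast collagen, and CD68, a macrophage marker, were present, and the 9 summed to 235 to 328 per siRNA library and 198 to 320 per C16 library.

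Of the 35 genes, 20 were called in at least 1 of the 4 comparisons of a treatment with its control, beside 49.6% of the 10735 genes tested in any of them. FAAP100, which forms the catalytic module of the core complex with FANCB and FANCL, fell with C16 and with PKR siRNA 1 by the largest amounts of any of the 35. With C16 most of the other calls were rises, among them the recombination genes EXO1, RAD54L, RAD51D and XRCC2 and the checkpoint genes CHEK1, CHEK2 and CLSPN. With PKR siRNA 2 most calls were falls, led by BRIP1 and RAD54L. With PKR siRNA 1 the calls were few.

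**Figure D1:**
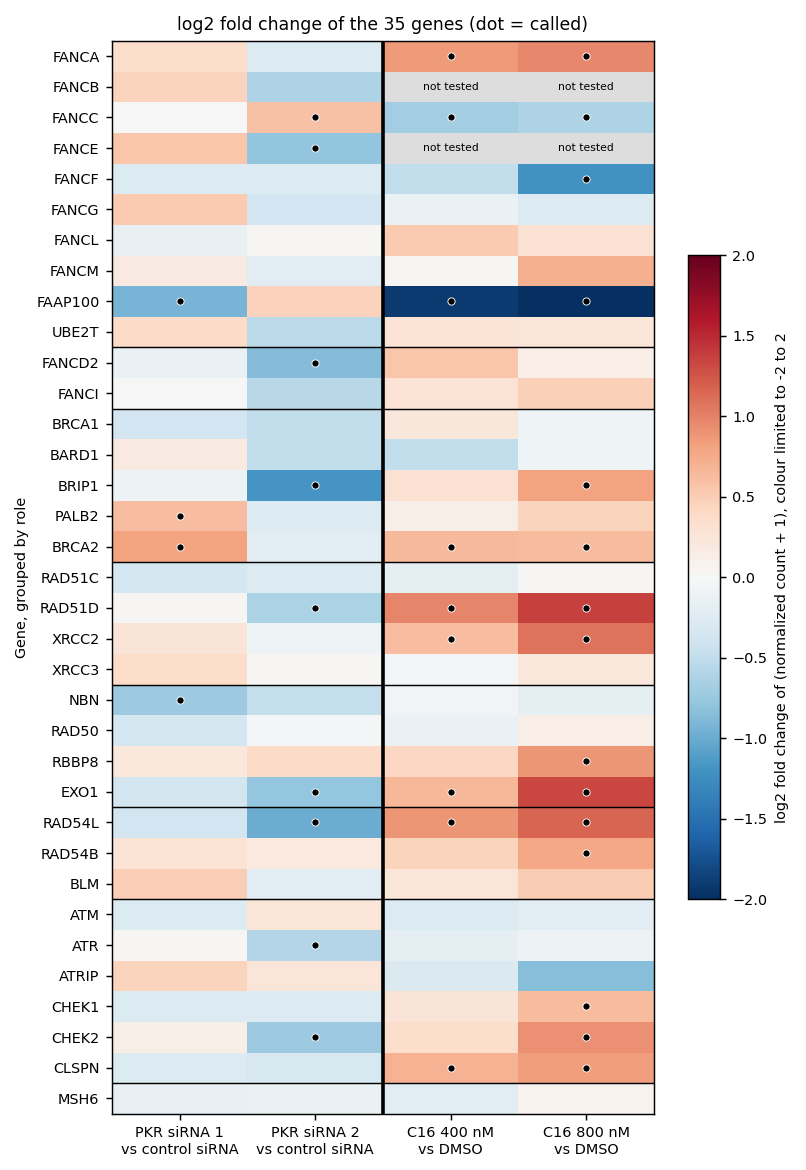
Heat map of the log2 fold change of (normalized count + 1) for the 35 genes (vertical axis, grouped by role with lines between roles) in 4 comparisons (horizontal axis), red for higher and blue for lower, with the colour limited to -2 to 2. A dot marks a called gene, and grey cells mark the genes not tested. FAAP100 is dark blue at both C16 doses (-1.92 and -2.89), RAD51D, EXO1, RAD54L and XRCC2 are red at both, and the PKR siRNA 2 column is mostly blue.

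For 5 of the 9 genes that were called in the same direction in at least 2 of the 4 comparisons, the genomic sequence just before the gene is shown, 2 that fell with C16 and 3 that rose. The sequences are from RefSeq (GRCh38.p14) and run 5′ to 3′ on the gene's strand up to the RefSeq start site or, where it lies further upstream, to the start of the gene model in the deposited tables. Capitals mark matches on either strand to E2F letters (TTTCCCGC, TTTGGCGC, TTTCGCGC or TTTGCCGC), to the CHR letters (TTTGAA) or to a CCAAT box (CCAAT). No match overlapped another in the sequences shown. The 5 were chosen after the motif search, FAAP100 as the gene that fell most and the others as the genes with a match.
FAAP100 (chr17:81552404-81552603, minus strand): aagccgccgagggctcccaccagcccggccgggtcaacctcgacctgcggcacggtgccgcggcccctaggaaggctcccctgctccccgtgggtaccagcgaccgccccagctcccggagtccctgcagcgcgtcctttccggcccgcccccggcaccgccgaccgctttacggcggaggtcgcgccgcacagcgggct
RAD54L (chr1:46247438-46247687, plus strand): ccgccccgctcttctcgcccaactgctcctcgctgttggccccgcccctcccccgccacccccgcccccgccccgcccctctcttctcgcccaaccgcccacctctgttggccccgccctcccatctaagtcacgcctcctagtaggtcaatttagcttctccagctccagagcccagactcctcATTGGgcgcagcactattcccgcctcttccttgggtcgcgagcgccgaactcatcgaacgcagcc
FANCA (chr16:89816658-89816897, minus strand): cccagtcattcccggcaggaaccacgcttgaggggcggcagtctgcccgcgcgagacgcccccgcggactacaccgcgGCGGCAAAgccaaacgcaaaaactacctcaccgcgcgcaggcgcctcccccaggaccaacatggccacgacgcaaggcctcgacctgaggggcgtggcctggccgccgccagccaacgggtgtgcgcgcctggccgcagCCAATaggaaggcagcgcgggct
CLSPN (chr1:35769979-35770228, minus strand): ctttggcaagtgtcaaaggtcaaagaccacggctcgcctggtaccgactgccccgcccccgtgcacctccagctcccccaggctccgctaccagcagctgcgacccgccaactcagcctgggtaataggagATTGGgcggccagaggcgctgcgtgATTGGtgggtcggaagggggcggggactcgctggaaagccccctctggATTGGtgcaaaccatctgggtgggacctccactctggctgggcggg
FANCC (chr9:95317710-95317959, minus strand): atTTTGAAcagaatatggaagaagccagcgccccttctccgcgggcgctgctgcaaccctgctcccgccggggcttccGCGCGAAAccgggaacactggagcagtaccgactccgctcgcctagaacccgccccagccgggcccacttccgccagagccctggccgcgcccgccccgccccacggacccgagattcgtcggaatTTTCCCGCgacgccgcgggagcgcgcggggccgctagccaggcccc
The FANCA sequence held GCGGCAAA, the reverse complement of the E2F letters TTTGCCGC, starting 172 bases before the RefSeq start site, and CCAAT starting 33 bases before it. RAD54L held ATTGG, the reverse complement of CCAAT, 65 bases before its start site, and CLSPN held it at 119, 94 and 46 bases. FANCC, which was lower at both C16 doses and higher with PKR siRNA 2, held E2F letters at 172 bases (GCGCGAAA, the reverse complement of TTTCGCGC) and 46 bases (TTTCCCGC) and the CHR letters at 248 bases. The FAAP100 sequence held none of these letters, nor did the 250 bases before 1 start site each of RAD51D, BRCA2, EXO1 and XRCC2, which met the same rule. For each gene only the RefSeq start site nearest its gene model is described, and RAD51D and EXO1 each have 2. The percentages below count every start site and also the 50 bases after it. A promoter entry was found for 32 of the 35 genes, with 46 windows of 250 bases before to 50 bases after a start site. E2F letters were in 15.2% of these windows and in 3.3% of all 35116 windows of the reference. A CCAAT box was in 45.7% and 34.6%, and the CHR letters were in 8.7% and 15.2%. Some genes have several windows, such as MSH6 with 4 and CHEK1 with 3, so the windows are not independent. In the 250 bases before the nearest start site, only FANCA and FANCC of the 32 genes held E2F letters. These are matches of letters and not tested sites.

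With 800 nM C16, 12 of the 33 tested genes were called higher, beside 11.6% of all 9963 genes tested, and 3 were called lower, beside 14.1%. The median log2 fold change of the 33 genes was 0.31, and that of all genes tested was 0.00. With 400 nM C16, 7 were called higher, beside 7.08% of all genes, and 2 lower, beside 5.45%, with a median of 0.24 beside 0.00. The DMSO libraries are shared by both doses.

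FAAP100 lies at chr17:81539885-81552403 on the minus strand of hg38, with 9 exons in the deposited annotation, none shared with another gene. Its normalized counts were 227, 228 and 225 with DMSO, 63.8, 56.5 and 57.5 with 400 nM C16, and 22.2, 32.9 and 36.3 with 800 nM. The 3 groups did not overlap, and the level was lower at each higher dose. The log2 fold change was -1.92 ± 0.15 (SE, n = 3 per group, adjusted p = 1.23e-16) at 400 nM and -2.89 ± 0.15 (adjusted p = 8.83e-25) at 800 nM, which is 0.264 and 0.135 of the DMSO level. Between the doses it fell by 0.96 (95% interval -1.26 to -0.67, adjusted p = 1.65e-06). Per kb of exon, FAAP100 was first of the 35 genes in DMSO, at 58.9 ± 0.32 normalized counts per kb (SD), which UBE2T, at 56.6 ± 6.8, did not differ from beyond its spread. At 800 nM it was the 22nd, at 7.91 ± 1.9.

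FANCC and FANCF, which form a subcomplex of the core complex with FANCE, were the other genes called lower. FANCC was at 40.8, 34.3 and 44.9 with DMSO, 29.8, 23.1 and 20.2 with 400 nM, and 23.2, 30.5 and 23.9 with 800 nM. Both doses lay below DMSO without overlap, by -0.70 ± 0.22 (adjusted p = 0.0114) and -0.61 ± 0.22 (adjusted p = 0.0179). The call at 800 nM was lost without DMSO replicate 1 (-0.60), DMSO replicate 3 (-0.53), C16 800 nM replicate 1 (-0.54) or replicate 3 (-0.56), and that at 400 nM without DMSO replicate 3 (-0.62) or C16 400 nM replicate 3 (-0.58). DESeq2 called neither dose (adjusted p = 0.0659 at 400 nM and 0.067 at 800 nM), and with a pseudocount of 5 the 800 nM value was -0.55. FANCF was at 18.5, 13.3 and 13.7 with DMSO, 12.8, 11.5 and 7.45 with 400 nM, and 8.07, 8.53 and 2.86 with 800 nM. The 800 nM libraries all lay below DMSO (-1.21 ± 0.37, adjusted p = 0.00575), and without C16 800 nM replicate 3 the value was -0.78 and the call was lost.

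FANCA, which also belongs to the core complex, rose. It was at 18.5, 20 and 28.9 with DMSO, 43.6, 36.9 and 41.5 with 400 nM, and 44.4, 49.96 and 38.2 with 800 nM. Both doses lay above DMSO, by 0.85 ± 0.20 (adjusted p = 0.000979) and 0.96 ± 0.20 (adjusted p = 8.68e-05), and overlapped each other. Of its exon length 22.9% also lies in exons of ZNF276 on the opposite strand, and the sources used here do not say whether reads were counted by strand, so its count is uncertain. The remaining tested core genes were not called at either dose: FANCG, FANCL, the ligase of the complex, FANCM, its DNA translocase, and UBE2T. The count of FANCL is uncertain as well, with 26.1% of its exon length shared with VRK2 on the opposite strand. FANCM lay at 6.67 to 25.3 with DMSO and 20.7 to 29.3 with 800 nM (0.71, 95% interval 0.08 to 1.35, adjusted p = 0.0598).

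The ID2 pair FANCD2 and FANCI, the targets of the core complex, were not called. FANCD2 lay at 24.3, 25.7 and 35.8 with DMSO, 49.99, 42.7 and 35.1 with 400 nM, and 29.3, 32.9 and 31.5 with 800 nM. At 400 nM FANCD2 passed the adjusted p but not the fold. It was called higher in limma without DMSO replicate 3 (0.73, adjusted p = 0.0141) or C16 400 nM replicate 3 (0.69, adjusted p = 0.0215). FANCI passed the adjusted p but not the fold at 800 nM (0.47, 95% interval 0.23 to 0.71, adjusted p = 0.00116). Of the exon length of FANCI 9.1% is shared with POLG on the opposite strand, so its count is uncertain.

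Among the BRCA complexes, BRCA2, a mediator of homologous recombination, and the helicase BRIP1 rose, while BRCA1, its partner BARD1 and PALB2, which links BRCA1 to BRCA2, were not called. BRCA2 was at 20.4, 21.0 and 25.1 with DMSO, 30.8, 41.5 and 34.0 with 400 nM, and 40.4, 32.9 and 32.4 with 800 nM. Both doses lay above DMSO, by 0.65 ± 0.21 (adjusted p = 0.0163) and 0.64 ± 0.21 (adjusted p = 0.0103). The call was lost at 400 nM without DMSO replicate 1 (0.60), DMSO replicate 2 (0.61) or C16 400 nM replicate 2 (0.53), and at 800 nM without C16 800 nM replicate 1 (0.55). In DESeq2 neither dose was called (adjusted p = 0.118 and 0.0653), and with a pseudocount of 5 both were at 0.57, under the fold threshold. BRIP1 was at 21.4, 18.1 and 21.3 with DMSO, 17.0, 35.8 and 26.6 with 400 nM, and 30.3, 43.9 and 35.3 with 800 nM. Only the 800 nM libraries lay entirely above DMSO (0.81 ± 0.24, adjusted p = 0.00414).

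Of the genes of the BCDX2 and CX3 complexes, which act in homologous recombination, RAD51D and XRCC2 rose and RAD51C and XRCC3 were not called. RAD51D was at 7.77, 18.1 and 26.7 with DMSO, 30.8, 32.3 and 31.9 with 400 nM, and 43.4, 48.7 and 35.3 with 800 nM. The groups did not overlap, and the DMSO libraries were the most spread. The log2 fold change was 0.97 ± 0.25 (adjusted p = 0.00235) at 400 nM and 1.37 ± 0.25 (adjusted p = 8.79e-06) at 800 nM, and without DMSO replicate 1 the 400 nM value was 0.51 and the call was lost, as it was in DESeq2 (adjusted p = 0.0746). Of its exon length 16.4% is shared with the read-through gene RAD51L3-RFFL on the same strand, so its count is uncertain. XRCC2 was at 15.6, 17.1 and 19.04 with DMSO, 27.7, 23.1 and 29.8 with 400 nM, and 32.3, 35.3 and 45.8 with 800 nM. The 3 groups did not overlap, with 0.61 ± 0.23 (adjusted p = 0.0397) at 400 nM and 1.08 ± 0.23 (adjusted p = 8.45e-05) at 800 nM. Its 400 nM call was lost without DMSO replicate 1 (0.54), DMSO replicate 2 (0.60), C16 400 nM replicate 1 (0.58) or replicate 3 (0.53), and in both count models on the reads (edgeR adjusted p = 0.0531, DESeq2 adjusted p = 0.201). In limma it was also lost with a pseudocount of 5 (0.51), without a minimum mean (adjusted p = 0.0697) and with the 800 nM group left out (adjusted p = 0.0572).

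**Figure D2:**
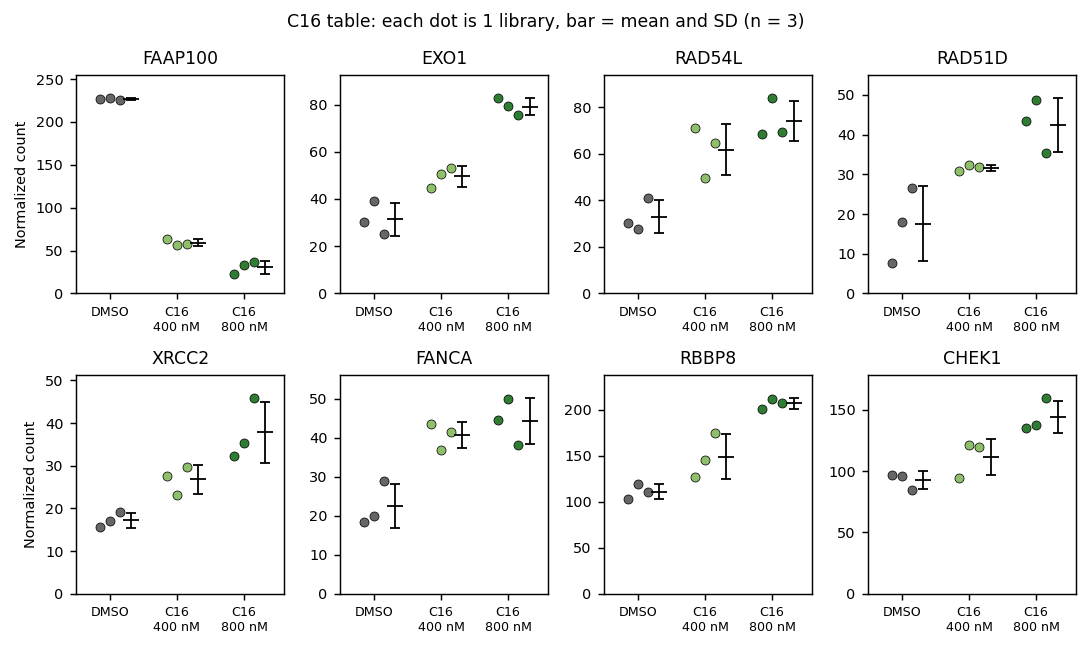
Normalized counts (vertical axis, from 0) of 8 genes in the DMSO, C16 400 nM and C16 800 nM libraries (horizontal axis); each dot is 1 library and the bar beside it the mean and SD (n = 3). FAAP100 falls from 225 to 228 in DMSO to 22.2 to 36.3 at 800 nM, while EXO1 rises from 25.1 to 39.1 to 75.4 to 82.7.

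Of the end-processing genes, the exonuclease EXO1 and RBBP8 (CtIP), which starts resection, rose, and RAD50 and NBN of the MRN complex were not called. EXO1 was at 30.1, 39.1 and 25.1 with DMSO, 44.7, 50.7 and 53.2 with 400 nM, and 82.7, 79.2 and 75.4 with 800 nM. The 3 groups did not overlap. The log2 fold change was 0.66 ± 0.17 (adjusted p = 0.00231) at 400 nM, 1.33 ± 0.17 (adjusted p = 2.83e-09) at 800 nM and 0.67 ± 0.17 (adjusted p = 0.00454) between the doses, and the 400 nM call was lost without DMSO replicate 3 (0.51). RBBP8 was at 103, 119 and 110 with DMSO, 127, 145 and 175 with 400 nM, and 201, 212 and 207 with 800 nM. It too was ordered by dose without overlap, and it was called at 800 nM (0.89 ± 0.11, adjusted p = 5.05e-10) but not at 400 nM, where the fold was 1.33 (0.41 ± 0.11, adjusted p = 0.00264).

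RAD54L, a DNA translocase of strand exchange, was at 30.1, 27.6 and 41.1 with DMSO, 71.3, 49.6 and 64.9 with 400 nM, and 68.6, 84.1 and 69.7 with 800 nM. Every C16 library lay above every DMSO library, by 0.89 ± 0.17 (adjusted p = 3.81e-05) and 1.16 ± 0.17 (adjusted p = 7.88e-08). Its relative RAD54B was at 25.3, 30.5 and 24.4 with DMSO, 31.9, 36.9 and 41.5 with 400 nM, and 48.4, 45.1 and 44.9 with 800 nM. The groups did not overlap, and the 800 nM rise was called (0.77 ± 0.19, adjusted p = 0.000843). Of the exon length of RAD54B 63.7% is shared with FSBP on the same strand, so its count is uncertain. The helicase BLM passed the adjusted p but not the fold at 800 nM (0.51, 95% interval 0.16 to 0.87, adjusted p = 0.0154).

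CHEK1, CHEK2 and CLSPN rose at 800 nM, and the upstream kinases ATM and ATR and the ATR partner ATRIP were not called. CLSPN was at 44.7, 58.1 and 65.5 with DMSO, 71.3, 106 and 96.8 with 400 nM, and 85.7, 98.7 and 115 with 800 nM. Both doses lay above DMSO and overlapped each other, with 0.69 ± 0.15 (adjusted p = 0.000222) and 0.83 ± 0.15 (adjusted p = 5.39e-06). The 400 nM call was lost without DMSO replicate 1 (0.54) or C16 400 nM replicate 2 (0.58). CHEK1 was at 97.2, 96.2 and 84.5 with DMSO, 94.7, 121 and 119 with 400 nM, and 135, 138 and 159 with 800 nM. Only the 800 nM libraries lay entirely above DMSO, at a fold of 1.55 (0.63 ± 0.12, adjusted p = 1.39e-05), and the value was 0.57 without DMSO replicate 3 and 0.56 without C16 800 nM replicate 3, under the fold threshold. CHEK2 was at 29.2, 17.1 and 19.8 with DMSO, 26.6, 26.5 and 29.8 with 400 nM, and 43.4, 35.3 and 45.8 with 800 nM. The 800 nM libraries lay above both other groups (0.91 ± 0.22, adjusted p = 0.000509). ATM passed the adjusted p but not the fold at 400 nM (-0.28, adjusted p = 0.0271), and MSH6 was at -0.21 (adjusted p = 0.124) and 0.07 (adjusted p = 0.62).

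Between the doses, EXO1 was called higher at 800 nM than at 400 nM, beside 1.13% of all genes, and FAAP100 lower, beside 3.95%. The median over the 33 genes was 0.23, and over all genes -0.02. RBBP8 (0.48, adjusted p = 0.00108), CHEK1 (0.37, adjusted p = 0.0262) and RAD50 (0.26, adjusted p = 0.0348) passed the adjusted p without the fold. A list of 20 other genes of S phase, such as CCNE1, CCNE2 and CDC6, moved beside these rises. Of that list, 9 were called higher at 800 nM and 4 at 400 nM, with medians of 0.51 and 0.38. Its summed level was 2595 to 2770 with DMSO, 3243 to 3519 with 400 nM and 3638 to 3817 with 800 nM. Of 20 mitotic genes KIF20A was called lower at 800 nM (list median 0.03), and their summed levels overlapped, at 4171 to 4705, 4379 to 4723 and 4159 to 4528. The part of these levels in the rises above was not tested, and in bulk RNA a larger share of cells in a phase and more RNA per cell cannot be told apart.

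Among the other genes of these pathways, calls with 800 nM C16 went in both directions. Of 31 tested further Fanconi and recombination genes, 4 were called higher (POLQ and MCM8 among them) and 3 lower (FAAP20, RECQL5 and WDR48), with a median of 0.03. Of 21 further checkpoint genes, 2 were higher and 3 lower, with a median of 0.01. Of 11 end-joining genes, 1 was lower. At 400 nM, 3 of the further Fanconi and recombination genes were higher and 2 lower, and 2 further checkpoint genes were higher. Of the 5 epithelial markers tested, KRT19 and CDH1 were called lower at both doses and EPCAM higher at 800 nM, and the summed level of the 6 markers was 7171 to 7572 with DMSO, 6033 to 6544 with 400 nM and 5172 to 5685 with 800 nM. COL1A1 was lower at 800 nM and CD68 higher at both doses, and the summed level of the 9 markers of other cell types was 205 to 235, 289 to 320 and 198 to 220. Their part in the results was not tested.

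With PKR siRNA 1, 2 of the 35 genes were called higher, beside 8.53% of all 10593 genes tested, and 2 lower, beside 12.6%. The median over the 35 was 0.02, and over all genes -0.01. The control siRNA libraries are shared with the comparison of PKR siRNA 2.

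FAAP100 was at 289, 291 and 272 with control siRNA and 156, 167 and 126 with PKR siRNA 1. The groups were far apart, and the level fell by 0.93 (SE 0.08, adjusted p = 1.08e-15), to 0.525 of the control. NBN, the MRN subunit that recruits ATM, was at 193, 185 and 194 with control siRNA and 132, 111 and 105 with PKR siRNA 1. It too fell without overlap (-0.72 ± 0.10, adjusted p = 1.16e-08). BRCA2 was at 47.2, 39.8 and 43.6 with control siRNA and 75.5, 65.3 and 89.7 with PKR siRNA 1. It rose by 0.80 ± 0.17 (adjusted p = 6.53e-05), with all libraries above the controls. PALB2 was at 47.2, 55.9 and 48.4 with control siRNA and 75.5, 64.4 and 96.5 with PKR siRNA 1. It also lay above the controls throughout (0.62 ± 0.16, adjusted p = 0.00121), at a fold of 1.53, and the call was lost without control siRNA replicate 1 (0.57) or PKR siRNA 1 replicate 3 (0.46). A further 9 of the 35 passed the adjusted p without the fold, beside 23.9% of all genes, including FANCG (0.53), UBE2T (0.39) and BLM (0.49), which were higher, and BRCA1 (-0.38), RAD50 (-0.35) and CHEK1 (-0.27), which were lower.

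Among other genes of these pathways, calls with PKR siRNA 1 went in both directions. Of 37 further Fanconi and recombination genes, 6 were higher, USP1 and SLX4 among them, and 1 lower, with a median of 0.21. Of 21 further checkpoint genes, RPA3 and WEE1 were higher. Of 11 end-joining genes 1 was higher and 1 lower, and of 6 mismatch repair genes MSH3 and PMS2 were lower. The mitotic genes MKI67 and PLK1 were higher (list median 0.32), and their list summed to 7386 to 7735 with control siRNA and 9697 to 10076 with PKR siRNA 1. Of the S phase genes MCM6 was lower. Of the 6 epithelial markers 5 were lower, with summed levels of 5358 to 5451 and 3052 to 3280, and COL1A1 was lower as well. Their part in the calls was not tested.

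With PKR siRNA 2, 8 of the 35 were called lower, beside 12.8% of all genes, and 1 higher, beside 10.8%. The median over the 35 was -0.28, and over all genes -0.01, and 8 of the 35 had a log2 fold change above 0. The falls were spread over most roles: FANCE in the core complex, FANCD2, BRIP1, RAD51D, EXO1, RAD54L, and ATR and CHEK2 in the checkpoint.

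BRIP1 was at 40.1, 53.7 and 48.4 with control siRNA and 19.9, 24.7 and 16.9 with PKR siRNA 2. It fell to 0.443 of the control (-1.18 ± 0.20, adjusted p = 6.92e-07), and the groups were well apart. RAD54L was at 83.2, 69.8 and 82.5 with control siRNA and 32.8, 39.7 and 44.2 with PKR siRNA 2. Its level was 0.5 of the control (95% interval of the log2 fold change -1.34 to -0.66, adjusted p = 7.31e-07). FANCD2 was at 57.5, 66.6 and 74.9 with control siRNA and 36.8, 29.0 and 42.3 with PKR siRNA 2. The groups did not overlap (-0.87 ± 0.17, adjusted p = 1.26e-05), and FANCI passed the adjusted p but not the fold (-0.56 ± 0.09, adjusted p = 3.82e-07). EXO1 was at 62.6, 62.3 and 60.7 with control siRNA and 38.8, 38.6 and 31.0 with PKR siRNA 2, without overlap (-0.77 ± 0.17, adjusted p = 9.76e-05).

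FANCE, which links the core complex to FANCD2, was at 26.7, 16.1 and 22.8 with control siRNA and 10.9, 11.8 and 13.2 with PKR siRNA 2. It fell by 0.79 (SE 0.26, adjusted p = 0.00764) from a low level, and without control siRNA replicate 1 the value was -0.64 and the call was lost, as it was in DESeq2 (adjusted p = 0.061). CHEK2 was at 40.1, 45.1 and 56.9 with control siRNA and 32.8, 23.6 and 28.2 with PKR siRNA 2, without overlap (-0.72 ± 0.19, adjusted p = 0.000765). ATR was at 133, 134 and 137 with control siRNA and 79.6, 104 and 85.6 with PKR siRNA 2. The groups were apart, but the fold was close to the threshold (-0.59 ± 0.11, adjusted p = 9.41e-06), and the call was lost without control siRNA replicate 3 (-0.58), PKR siRNA 2 replicate 1 (-0.51) or replicate 3 (-0.56). It was also lost at -0.57 in edgeR, in DESeq2, after median-of-ratios rescaling and with a pseudocount of 5. RAD51D was at 52.4, 32.2 and 28.4 with control siRNA and 25.9, 16.1 and 29.2 with PKR siRNA 2. These groups overlapped (-0.64 ± 0.22, adjusted p = 0.0129), and the call was lost without control siRNA replicate 1 (-0.38) or PKR siRNA 2 replicate 2 (-0.39), with a pseudocount of 5 (-0.56) and in DESeq2 (adjusted p = 0.0865). FANCC, the gene called higher, was at 39.02, 48.3 and 32.2 with control siRNA and 65.7, 60.1 and 53.6 with PKR siRNA 2. All 3 libraries lay above the controls (0.59 ± 0.18, adjusted p = 0.00409), and the call was lost without control siRNA replicate 1 (0.58) or replicate 3 (0.45), or PKR siRNA 2 replicate 1 (0.52) or replicate 2 (0.58).

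A further 11 of the 35 passed the adjusted p without the fold, beside 23.8% of all genes. BRCA1 (-0.49), BARD1 (-0.50), UBE2T (-0.54), FANCG (-0.38), NBN (-0.47), CHEK1 (-0.28) and CLSPN (-0.32) were lower, and FAAP100 (0.46), RBBP8 (0.39) and ATM (0.24) were higher, beside FANCI. The mitotic genes moved beside these falls: 7 of 20 were called lower, with a median of -0.46, and their summed level was 7386 to 7735 with control siRNA and 5199 to 5463 with PKR siRNA 2. Of the S phase genes MCM3 and RRM1 were called lower, with a median of -0.27, and the summed level was 4430 to 4627 and 3453 to 3672. Their part in the falls was not tested. Of 37 further Fanconi and recombination genes, 6 were lower and 1 higher, with a median of -0.09. Of 21 further checkpoint genes, 2 were higher and 3 lower, with a median of -0.10. The end-joining gene NHEJ1 was higher, and the mismatch repair gene MSH3 was lower. Of the 6 epithelial markers, 3 were higher and 2 lower, and their summed level was 5358 to 5451 with control siRNA and 9586 to 10233 with PKR siRNA 2. The 9 markers of other cell types summed to 254 to 269 and 323 to 328. The part of these markers in the falls was not tested.

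**Figure D3:**
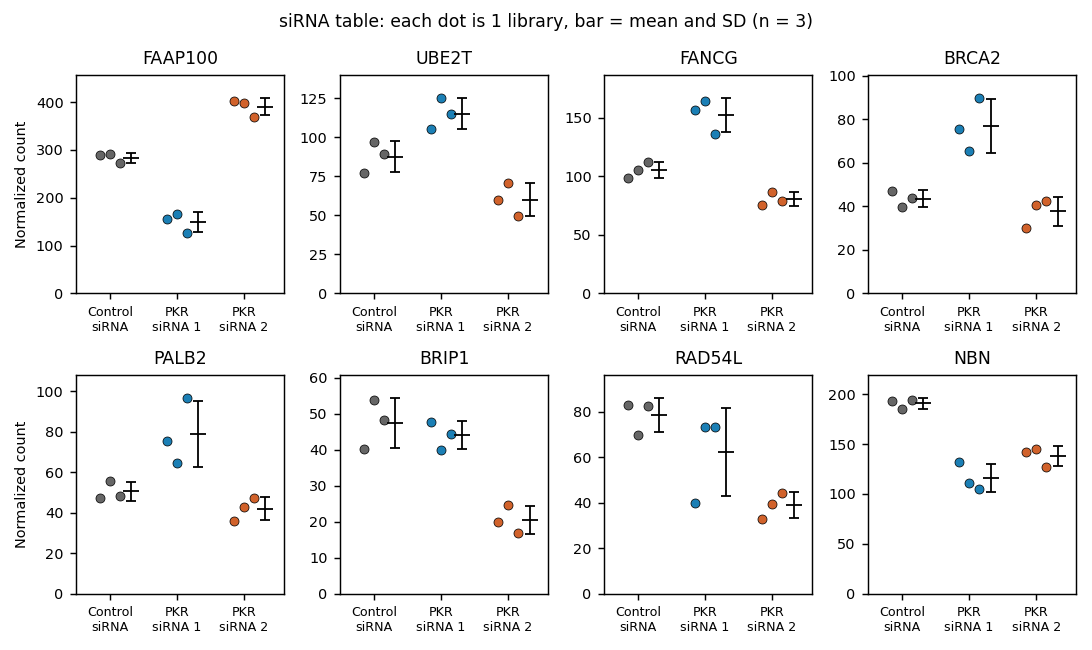
Normalized counts (vertical axis, from 0) of 8 genes in the control siRNA, PKR siRNA 2 and PKR siRNA 1 libraries (horizontal axis, in the order control, PKR siRNA 1, PKR siRNA 2); each dot is 1 library and the bar beside it the mean and SD (n = 3). FAAP100 lies at 126 to 167 with PKR siRNA 1 and at 370 to 403 with PKR siRNA 2, on both sides of the control at 272 to 291; UBE2T and FANCG lie on the other side of the control with each siRNA.

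Since both siRNAs lowered EIF2AK2, to 11.1 ± 2.19 and 8.65 ± 0.726 (SD, n = 3), the PKR siRNA 2 libraries were also tested against the PKR siRNA 1 libraries. Here 15 of the 35 genes were called lower with PKR siRNA 2, beside 15.3% of all genes, and 1 higher, beside 16.4%, with a median of -0.38 beside -0.01. FAAP100 was the gene called higher (1.39 ± 0.08, adjusted p = 8.01e-25), at 390 ± 18.2 against 150 ± 20.9. The lower genes covered the core complex (FANCA, FANCB, FANCE, FANCG and UBE2T), FANCD2, the BRCA complexes (BRIP1, BRCA2, PALB2 and BARD1), RAD51D, RAD54L and BLM, and the checkpoint (ATR and CHEK2). The largest of these was FANCE, at 31.1, 31.8 and 32.8 after PKR siRNA 1 against 10.9, 11.8 and 13.2 after PKR siRNA 2 (-1.35 ± 0.26, adjusted p = 5.37e-06). FANCG (-0.91, adjusted p = 1.67e-10), UBE2T (-0.94, adjusted p = 5.48e-09), BRCA2 (-1.02, adjusted p = 3.67e-07) and BRIP1 (-1.08, adjusted p = 3.08e-06) differed without overlap. FANCB and RAD54L overlapped between the siRNAs.

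Of these calls, 6 were lost on leaving out a library: FANCB without PKR siRNA 1 replicate 1 (-0.87) or PKR siRNA 2 replicate 3 (-0.52), FANCA without PKR siRNA 1 replicate 2 (-0.57) or PKR siRNA 2 replicate 2 (-0.41), and FANCD2 without PKR siRNA 1 replicate 2 (-0.58). RAD51D was lost without PKR siRNA 2 replicate 2 (-0.42), RAD54L without PKR siRNA 1 replicate 2 (-0.48) or replicate 3 (-0.48) or PKR siRNA 2 replicate 1 (-0.51), and ATR without PKR siRNA 1 replicate 2 (-0.55) or PKR siRNA 2 replicate 1 (-0.53) or replicate 3 (-0.58). DESeq2 did not call FANCB (adjusted p = 0.0794) or RAD51D (adjusted p = 0.0691), and with a pseudocount of 5 RAD54L was at -0.58, under the fold threshold. Of 37 further Fanconi and recombination genes, 12 were lower and 1 higher in this comparison, with a median of -0.39, and of 21 further checkpoint genes 7 were lower and 2 higher, with a median of -0.37. The end-joining genes FAM35A and NHEJ1 were higher, and of the mismatch repair genes PMS2 was higher and PMS1 lower. Of the S phase genes MCM3 and RRM1 were lower. In the same comparison 18 of the 20 mitotic genes were called lower (median -0.72, 9697 to 10076 with PKR siRNA 1 and 5199 to 5463 with PKR siRNA 2). Of the 6 epithelial markers, 4 were called higher and 1 lower, with summed levels of 3052 to 3280 and 9586 to 10233. COL1A1 was higher as well, and the 9 markers of other cell types summed to 235 to 297 and 323 to 328. Their part in these differences was not tested.

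**Figure D4:**
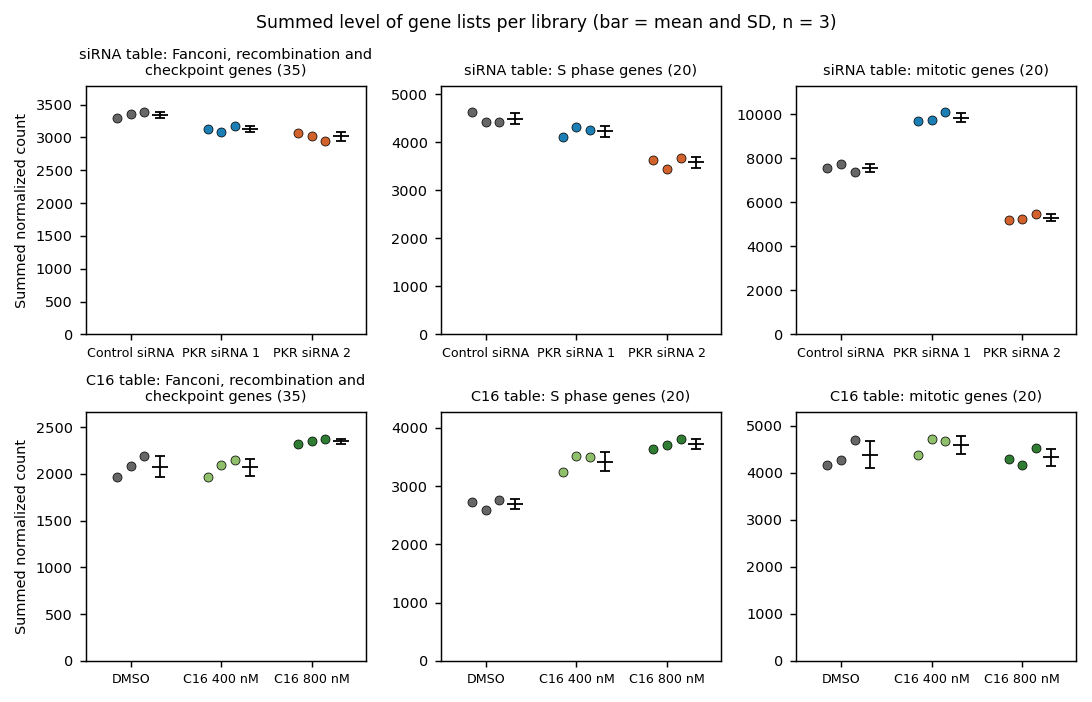
Summed normalized count per library (vertical axis, from 0) of the 35 genes, of 20 S phase genes and of 20 mitotic genes, in the siRNA table (top) and the C16 table (bottom); each dot is 1 library and the bar the mean and SD (n = 3). The mitotic sum is highest with PKR siRNA 1 (9697 to 10076) and lowest with PKR siRNA 2 (5199 to 5463), and the S phase sum is highest with 800 nM C16 (3638 to 3817).

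Across the tables only calls were set side by side. Of the 8 genes called lower with PKR siRNA 2 and the 12 called higher with 800 nM C16, 5 were in both lists (BRIP1, RAD51D, EXO1, RAD54L and CHEK2). FANCE, 1 of the 8, was not tested with C16, so these are 71.4% of the 7 that could be shared and 41.7% of the 12. Over all 9821 genes tested in both experiments, 326 were in both lists, which is 26.2% of the 1244 lower with PKR siRNA 2 and 28.9% of the 1127 higher with 800 nM C16. FANCC was higher with PKR siRNA 2 and lower with 800 nM C16. FAAP100 was lower and BRCA2 higher both with PKR siRNA 1 and with 800 nM C16, while NBN and PALB2, also called with PKR siRNA 1, were not called with 800 nM C16. For FANCC, FAAP100 and BRCA2 the share of all genes with the same pair of calls was not counted. C16 left EIF2AK2 mRNA at 45.7 to 54.1 with DMSO, 39.2 to 45.7 with 400 nM and 48.7 to 51.4 with 800 nM, and neither dose was called (-0.22, adjusted p = 0.35, and 0.01, adjusted p = 0.974).

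The 15 genes called in none of the 4 comparisons were FANCB, FANCG, FANCL, FANCM, UBE2T, FANCI, BRCA1, BARD1, RAD51C, XRCC3, RAD50, BLM, ATM, ATRIP and MSH6, and FANCB was tested in the siRNA table only. They span a wide range of levels: per kb of exon in the control siRNA libraries UBE2T was first of the 35, at 96.1 ± 11 normalized counts per kb (SD), and FANCM the 35th, at 3.2 ± 0.6. A gene with few reads had a wide interval, as for FANCM with PKR siRNA 1 (0.18, 95% interval -0.35 to 0.70) and ATRIP with 800 nM C16 (-0.85, 95% interval -1.59 to -0.11, adjusted p = 0.0546), so an absent call does not show that these genes were level.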

How the data were processed

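RNA-seq of PANC-1 cells was available for 18 libraries, 3 in each of 6 groups taken from the sample labels. The authors selected poly(A) RNA, used a directional kit and sequenced paired ends of 75 bases on a MiSeq. Alignment to hg38 used TopHat, genes were counted by featureCounts, and TCC then applied TMM to the siRNA and the C16 libraries apart. What was deposited is thus a count scaled by a factor of its library (a normalized signal), with genes of low value left in. The annotation release and strand setting were not given in the sources used here. Dividing by the value of 1 read gave whole numbers for 100.0% of entries in every library (tolerance 0.001 reads), so reads were recovered. In PKR siRNA 2 replicate 1 and C16 800 nM replicate 1 that value is so near 1 that multiples cannot be told from rounding. The number of sample columns left unassigned was 0. Depth was 1512940 to 1873906 reads per siRNA library and 894145 to 1474308 per C16 library, so the latter are less precise.

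The test was limma 3.58.1 in R 4.3.3 (eBayes with trend, two-sided) on log2 of the normalized count plus 1. Each fit took the 9 libraries of its table, and genes whose mean reached 10 entered it. Adjusted p-values are Benjamini-Hochberg over all genes tested, intervals are unadjusted, and a call needed an adjusted p under 0.05 and a fold over 1.5. Fold changes, also where given as a fraction of a control, are on the log2 (value + 1) scale, which understates changes of low genes. Libraries of a group differed by more than sampling noise (chi-square per degree of freedom 1.03 to 1.63, median 1.12, p under 0.05 in 18 of 18 pairs), so none were merged. Tried beside it were pseudocounts of 0.5 and 5, a minimum mean of 30 or none, rescaling by the median of ratios, leaving the third group out of the fit, blocking by replicate number, calling without the fold, edgeR 4.0.16 (quasi-likelihood) or DESeq2 1.42.0 run on recovered reads, and omission of single libraries. The fits were tested on simulated data. Genes called against a control are given in every library of that table, and others by ranges or counts. Promoter sequences were limited to genes called in 1 direction in at least 2 of the 4 comparisons with a control. The genes, the other gene lists, written from memory, and the tests were chosen with earlier results of these data known. Some genes of these lists are not reported here by name.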

Additional observations from a re-analysis of the deposited data

Results flagged for a closer look

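For 4 of the 35 genes the siRNAs against PKR moved the level to opposite sides of the control, each at an adjusted p under 0.05 in limma, and the siRNAs differed in the direct test. FAAP100 was at -0.93 with PKR siRNA 1 and 0.46 with PKR siRNA 2, a difference of 1.39 on the log2 scale (95% interval 1.22 to 1.56, adjusted p = 8.01e-25). FANCG was at 0.53 and -0.38, a difference of -0.91 (95% interval -1.14 to -0.68, adjusted p = 1.67e-10). UBE2T was at 0.39 and -0.54, a difference of -0.94 (95% interval -1.20 to -0.67, adjusted p = 5.48e-09). ATM was at -0.27 and 0.24, a difference of 0.51 (95% interval 0.35 to 0.67, adjusted p = 1.46e-07) that stayed under the fold threshold, and its PKR siRNA 2 libraries overlapped the controls. Each siRNA was compared with the same 3 control libraries, and EIF2AK2 itself differed by -0.31 between the siRNAs (adjusted p = 0.282). Passing this threshold was common: of all 10593 genes tested, 21.1% rose and 23.9% fell under PKR siRNA 1. Under PKR siRNA 2 the shares were 22.1% and 25.2%. How many of all genes moved to opposite sides was not counted, so the 4 genes are not shown to be unusual. The cause was not tested.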

How the results depend on the processing

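Of 55 calls of the 35 genes over all comparisons, 34 were made under every alternative in which the gene was tested and 0 changed direction. Of the 34, 4 were not tested at a minimum mean of 30 (BARD1 and FANCE between the siRNAs, BRIP1 and XRCC2 at 800 nM C16), which leaves 30, and FAAP100 was called in 5 comparisons under all alternatives. The counts moved as follows. Without a fold threshold, 6 were higher and 7 lower with PKR siRNA 1, 4 and 16 with PKR siRNA 2, 5 higher with PKR siRNA 2 against PKR siRNA 1, and 4 higher at 800 nM against 400 nM C16. Of all genes tested, 21.1% and 23.9%, 22.1% and 25.2%, 27.7%, and 5.09% passed in the same order. With a pseudocount of 5, PALB2 and FANCC lost their rises, leaving 1 higher with PKR siRNA 1 and 0 with PKR siRNA 2 (1 under edgeR and 1 under DESeq2). DESeq2 left 5 lower with PKR siRNA 2 and 4 higher and 1 lower at 400 nM C16, and called 2 higher between the siRNAs. edgeR called 2 higher between the siRNAs and 2 higher between the doses. Leaving out 1 library at a time gave 0 to 1 higher with PKR siRNA 2, 1 to 2 higher between the siRNAs, 4 to 8 higher and 1 to 2 lower at 400 nM C16, and 1 to 2 higher between the doses. The low counts at 400 nM came without DMSO replicate 1 (4 higher) and without DMSO replicate 3 or C16 400 nM replicate 3 (1 lower). RBBP8 was the second gene higher between the doses without C16 400 nM replicate 3, and FANCC between the siRNAs without PKR siRNA 1 replicate 3 or PKR siRNA 2 replicate 3. The value of EIF2AK2 at 800 nM C16, 0.01, became -0.05 without DMSO replicate 1 and -0.01 without C16 800 nM replicate 1, in a range of -0.05 to 0.07 over libraries left out. The cause of these changes was not tested. A replicate block changed no count by over 1.5 times, leaving 8 lower with PKR siRNA 2 and 13 higher at 800 nM C16. Replicate numbers did not pair the libraries, with correlations of deviations of -0.05 to 0.03 between libraries of the same number. Median-of-ratios rescaling moved the median of all genes by at most 0.019. Genes with few reads have wide intervals, above all in the shallower C16 libraries, and a missing call there does not show a level gene.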

Other observations

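The genes beside FAAP100 on chromosome 17 were looked at after its fall had been seen. ACTG1, which encodes cytoplasmic gamma-actin, lies at chr17:81509971-81512866 on the same strand and averaged 3638 ± 148 normalized counts in DMSO libraries, 2924 ± 143 at 400 nM C16 and 1947 ± 86.6 at 800 nM (SD, n = 3). It was called lower at 800 nM (-0.90 ± 0.05 (SE), adjusted p = 3.38e-22), and at 400 nM it passed the adjusted p without the fold (-0.32, adjusted p = 2.8e-06). FSCN2, which encodes retinal fascin, lies between the genes on the opposite strand and was too low to be tested, with a mean of 10.97 ± 5.67, 1.83 ± 0.672 and 1.31 ± 1.13 in the same order. NPLOC4, on the other side of FAAP100, averaged 306 ± 27, 311 ± 25 and 307 ± 1.9, and its log2 fold change at 800 nM was 0.01 (95% interval -0.16 to 0.18, adjusted p = 0.936).

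The siRNA libraries were read for the same genes. ACTG1 was at -0.48 with PKR siRNA 1 (adjusted p = 2.26e-19) and 0.09 with PKR siRNA 2 (adjusted p = 0.03), both under the fold threshold. NPLOC4 was at 0.32 (adjusted p = 1.18e-05) and -0.23 (adjusted p = 0.00149), opposite in sign to FAAP100 with each siRNA. FSCN2 averaged 6.49 ± 2.87 in the controls, 4.92 ± 0.752 after PKR siRNA 1 and 17.2 ± 5.15 after PKR siRNA 2.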
